A study of Mus musculus with 109 samples.

Results

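The region described here is a gene-poor stretch of mouse chromosome 8 (mm9, 5.0 to 10.0 Mb) that holds Efnb2, Fam155a and few other genes. Its members are the HindIII sites between those coordinates, 1648 of the 823352 sites in the deposited table and of the 39480 on chromosome 8. They were chosen by position alone. The series used 4C-seq, in which the HindIII fragments ligated to 1 chosen fragment, the bait, are amplified and sequenced, to follow how a bait's near and far contacts are set up as cells leave mitosis. All libraries came from C127 cells, a mouse mammary tumour line, which were crosslinked with formaldehyde and cut with HindIII and then DpnII. The 6 baits on chromosome 8 were B7, inside the region at 7223950, and B26, B44, B53, B87 and B118, which lay 16.8, 34.4, 43.0, 77.4 and 108.5 Mb beyond its distal end. B26 lies in an intron of Whsc1l1 and B87 in an intron of Dnase2a, and the other 4 lie in no annotated gene.

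The groups were cells held in mitosis with nocodazole for 4 h, the same cells 30 min, 1 h, 2 h, 3 h and 4 h after release, cells 15 h after release (G2), and cells starved of serum for 5 days (G0). Synchrony rests on these treatments as labelled, and no marker of the cell cycle was measured. There were 2 libraries for 30 min, 1 h and G0, and 1 for each of the other labels after the 2 technical replicates of 2 h were summed. B7, B26, B44 and B53 had 11 libraries each, and B87 and B118, which had no mitotic library, had 10 each. Labels call the replicates biological, but nothing says whether cultures were shared between baits, so p-values measure the spread between these libraries only.

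Interphase chromosomes are folded into domains within which contacts are frequent, and gene-poor, AT-rich stretches of the genome tend to replicate late and to contact other gene-poor stretches, whereas gene-rich stretches contact each other. In mitosis this pattern is largely lost, and it is rebuilt in early G1. A 4C bait reads that pattern from 1 point: the number of ligated sites falls with distance from the bait, and a region above or below that fall is contacted more or less often than its distance alone would give.

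The region held 9 protein-coding genes of the GENCODE annotation of mm9, against 52 in the next 5 Mb (10.0 to 15.0 Mb). Its GC content was 39.3%, against 46.8% in the next 5 Mb and 42.4% in all of chromosome 8. From the proximal end the genes were Slc10a2 (5085623 to 5105232, minus strand), which encodes the bile acid transporter of the ileum; Gm1840 (5639584 to 5640996, plus strand); Efnb2 (8617434 to 8661239, minus strand), which encodes the membrane-bound ligand ephrin-B2; 4921522P10Rik (8661801 to 8664728, plus strand); and Arglu1 (8666577 to 8690537, minus strand). Fam155a (9207238 to 9771018, minus strand), which encodes a partner of the sodium leak channel NALCN, spanned 563781 bp. Gm10217 (9864251 to 9870315, plus strand), Lig4 (9970020 to 9977686, minus strand), which encodes the ligase of non-homologous end joining, and Abhd13 (9977707 to 9992155, plus strand) lay at the distal end. No protein-coding gene started or ended between Gm1840 and Efnb2, the stretch in which B7 lies. Of the region's sites 13.4% lay in a protein-coding gene, against 56.8% in the next 5 Mb.

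The sequences of the B7 primer and of 3 sites of the region are given here as examples. The B7 primer ends on its own HindIII site, and each captured site is a second HindIII site ligated to it. The following lines give the B7 primer (chr8:7223950-7223970, plus strand) and the 3 sites more than 50 kb apart that the most libraries of the 5 distal baits captured, each with 30 bases on both sides and with the HindIII site in capitals (mm9, plus strand; chr8:6325990-6326055, chr8:8604302-8604367 and chr8:8856937-8857002).
B7 primer: tattaggacagacagAAGCTT
Site 1: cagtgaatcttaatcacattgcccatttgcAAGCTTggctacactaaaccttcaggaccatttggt
Site 2: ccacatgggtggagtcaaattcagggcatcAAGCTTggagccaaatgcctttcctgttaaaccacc
Site 3: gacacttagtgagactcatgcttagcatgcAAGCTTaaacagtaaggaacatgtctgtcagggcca
All 3 sites were intergenic. Site 1 was captured by 27 of 53 distal libraries and lay 685024 bp from Gm1840, the nearest protein-coding gene. Site 2 was captured by 26 libraries and lay 13102 bp from Efnb2, and site 3 was captured by 26 and lay 166430 bp from Arglu1. Each was captured from all 5 distal baits and in all 11 B7 libraries. By bait, site 1 was captured in 6 of 11 B26, 8 of 11 B44, 7 of 11 B53, 2 of 10 B87 and 4 of 10 B118 libraries. Site 2 was captured in 7, 7, 6, 3 and 3 libraries of those baits, and site 3 in 7, 9, 4, 1 and 5. Over all sites of the region the median was 12 of the 53 distal libraries, and 287 sites were captured by none of them.

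A site can be captured only through an end that the method can read. An end was called usable here when its HindIII fragment holds a DpnII site and when its 35 bases from the HindIII site on occur once. That was counted among the ends of the 842075 HindIII sites of the genome. The length of 35 bases is that of a 50-bp read from the B7 primer. It was used for every bait, though primers of the other baits differ in length. The region had 1.50 usable ends per site, against 1.68 in the next 5 Mb, 1.34 in the 2 Mb before it and 1.56 in all of chromosome 8. Of its sites, 1029 had 2 usable ends, 416 had 1 and 203 had none. All 3 printed sites had 2. Sites with 2 usable ends were captured by a median of 15 distal libraries, those with 1 by 9 and those with none by 0. Any library of the 6 baits captured 98.5% of the first kind and 29.1% of the last. The comparisons of the region with the next 5 Mb, of baits, of genes with intergenic sites and of the sides of B7 were therefore also run on sites with 2 usable ends, a choice made after the data had been seen. The excess over other chromosomes, the share of B7's sites in the region and the stage tests were not.

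Read totals ran from 266006 to 12536212 per library, and captured sites on chromosome 8 more than 2 Mb from the bait from 687 upward. At all 6 baits the fewest lay in the library labelled 3 h or 4 h. In all 70 columns used, more reads lay beside the labelled bait than beside any other chromosome 8 bait. Sites on other chromosomes overlapped between 2 libraries at every bait: those labelled 1 h replicate 2 and 2 h technical replicate 1 had 64.9% to 96.7% of the smaller library's sites in common, against a median of 7.63% for other pairs, and at B44 and B118 a library labelled G0 shared with both as well. Results were also computed without 1 h replicate 2 and 2 h technical replicate 1, and the stage tests of bins without 1 h replicate 2 and the whole 2 h library. Neither was done for the test between pairs of baits of region minus next 5 Mb or for the comparison of windows around the baits. The share of B7's sites in the region was computed without 1 h replicate 2 and without the 2 h library in turn. The G0 libraries were left out together or 1 at a time, not together with that pair. Reads are PCR copies without molecular identifiers, so counting intervals and floors cover counting error only.

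The share of the region's sites that a library captured depended on the bait and on the library. From B7, inside it, 49.7% to 80.8% of the 1648 sites were captured (median 73.7%). From B26 the lowest, median and highest shares were 1.58%, 43.3% and 64.0%, from B44 3.94%, 30.0% and 49.2%, and from B53 3.10%, 16.1% and 64.4%. From B87 they were 0.303%, 4.28% and 16.3%, and from B118 1.76%, 6.40% and 18.2%. The shares of B87 and B118 thus stayed below 20% in every library, while each of B26, B44 and B53 had libraries both far above and far below that. The widest 95% binomial interval (Wilson) of any of these shares was 2.41 points to either side, which is small beside the spread between libraries of 1 bait.

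**Figure D1:**
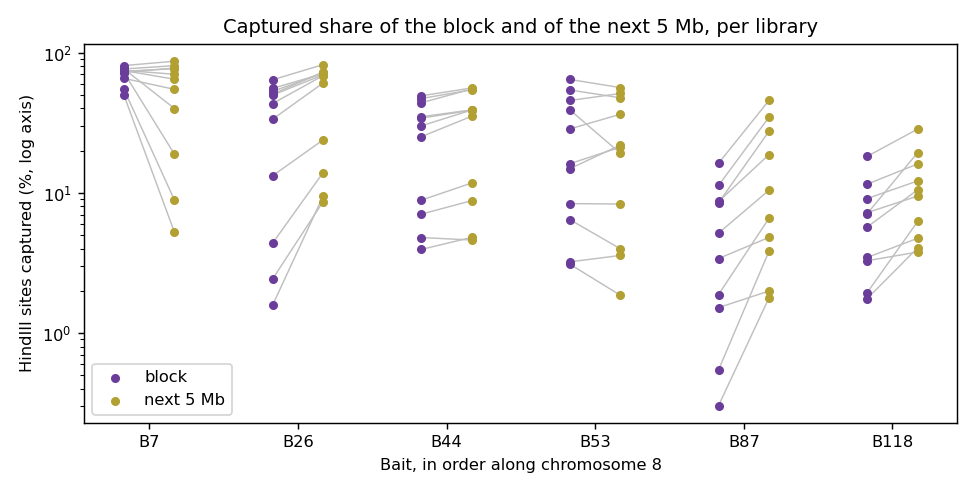
Percent of HindIII sites captured in the gene-poor region (purple) and in the next 5 Mb (yellow), on a log axis, for each library of the 6 baits; a grey line joins the values of 1 library. The lines rise to the right for all 11 B26, all 10 B87 and all 10 B118 libraries, and B7, inside the region, captured 49.7% to 80.8% of it.

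All 5 distal baits captured the region more often than they captured other chromosomes, with larger mean excesses from B26, B44 and B53 than from B87 and B118, a difference that was not tested. The log2 ratio of the captured share was 3.30 ± 1.53 from B26, 1.93 ± 0.776 from B44 and 3.10 ± 0.919 from B53 (SD, n = 11 each), or 9.82-fold, 3.804-fold and 8.57-fold. From B87 it was 0.79 ± 0.633 and from B118 0.84 ± 0.309 (SD, n = 10 each), or 1.73-fold and 1.79-fold. It was above 0 in all 11 libraries of B26, B44 and B53, in all 10 of B118 and in 9 of 10 of B87, where the library labelled 4 h had -0.10. By an exact two-sided sign-flip permutation test over libraries the adjusted p was 0.00163 for B26, B44 and B53, 0.00244 for B118 and 0.00586 for B87 (5 baits). The order of baits along the chromosome is not the order of these values, since B44 lies nearer than B53. The region itself was captured alike from these 2 baits, at means of 26.3% and 25.8%. On other chromosomes B44 captured a mean of 7.37% of sites and B53 2.45%.

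Set against the fall of contacts with distance, the region had lower levels from B87 and B118 than from the other 3 distal baits. The expected number of captured sites came from a Poisson regression on log distance fitted to each library outside the region. The mean log2 observed over expected was -0.20 ± 0.747 from B26, -0.15 ± 0.230 from B44 and -0.25 ± 0.650 from B53 (SD, n = 11 each), against -1.80 ± 0.431 from B87 and -1.26 ± 0.433 from B118 (SD, n = 10 each). It was below 0 in all 10 libraries of B87 and in all 10 of B118, and on both sides of 0 at the other 3. Of the 10 pairs of baits, 7 differed at an adjusted p under 0.05 in a permutation test over libraries (100000 permutations, 10 pairs). B44 exceeded B87 by 1.65 on the log2 scale (95% interval 1.35 to 1.95, adjusted p = 0.0001) and B118 by 1.11 (0.81 to 1.41, adjusted p = 0.0001). B26 exceeded B87 by 1.60 (1.08 to 2.12, adjusted p = 0.000175) and B53 exceeded it by 1.55 (1.09 to 2.02, adjusted p = 0.000175). The pairs among B26, B44 and B53 missed the threshold, with differences of -0.05 (-0.51 to 0.42), 0.05 (-0.54 to 0.63) and 0.09 (-0.31 to 0.50). B87 was lower than B118 by a smaller margin, -0.54 (-0.92 to -0.16, adjusted p = 0.0182). These levels rest on the assumed shape of the fall with distance: with a lowess that included the region, 1 of 10 pairs passed. With reads in place of sites, B26 minus B44 was -1.66 and B44 minus B53 was 1.59. Both then passed (adjusted p = 0.0223 and 0.036, permutation test), while B87 minus B118 missed the threshold (-0.45, adjusted p = 0.207, permutation test). The read level of B44 was 1.17 ± 2.07 (SD, n = 11), with a highest value of 5.15 in G0 replicate 1. Yet the region held 0.202% of that library's reads more than 2 Mb from the bait, the lowest share at B44. The next highest level, 4.45 in 30 min replicate 1, went with 0.643%, and the lowest, -1.12 in G0 replicate 2, with 1.01%. The read levels of B44, and the 2 pairs that then passed, thus rest on the expected values of the fit.

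The contrast with the gene-rich 5 Mb beyond the region rests less on the assumed shape, since both stretches lie at similar distances from the farther baits. This holds least for B26, which lies 16.8 Mb from the region and nearer to the next 5 Mb. From B26, B87 and B118 the gene-poor region was captured less than the next 5 Mb, relative to distance, in every library. From B26 the difference was -0.76 ± 0.758 (log2, SD, n = 11), with a lowest value of -2.39 in the library labelled 3 h and a highest of -0.12 in 1 h replicate 1. From B87 it was -1.45 ± 0.777 (n = 10), from -2.73 in the library labelled 3 h to -0.31 in G0 replicate 1. From B118 it was -0.74 ± 0.502 (n = 10), from -1.64 in the library labelled 3 h to -0.15 in G0 replicate 1. These are 1.69-fold, 2.73-fold and 1.68-fold fewer captured sites than the next 5 Mb, with an adjusted p of 0.00326 at each of the 3 baits (exact sign-flip permutation test, 5 baits). On sites with 2 usable ends the differences were -0.54, -1.27 and -0.53, with adjusted p of 0.0277, 0.0146 and 0.0146 by the same exact test. With the 2 Mb before the region as the neighbour, the difference of B26 was -0.38 and missed the threshold (adjusted p = 0.13, exact test).

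At B44 the direction depended on the measure and the neighbour, and at B53 the mean lay above 0. From B44 the difference was -0.18 ± 0.137 (n = 11), below 0 in 10 of 11 libraries (adjusted p = 0.00732, exact test), but it was -0.000544 on sites with 2 usable ends (adjusted p = 0.991, exact test) and 0.14 with reads in place of sites. From B53 it was 0.18 ± 0.512 (n = 11; p = 0.27, exact test), above 0 in 6 libraries and below 0 in 5, from -0.48 in G0 replicate 2 to 1.09 in 30 min replicate 1. On sites with 2 usable ends the difference of B53 was 0.38 (adjusted p = 0.0452, exact test).

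The difference between baits was tested for itself, after the data had been seen. Of the 10 pairs, 8 differed in region minus next 5 Mb at an adjusted p under 0.05 (permutation test), and 8 did so on sites with 2 usable ends. B53 exceeded B87 by 1.63 (95% interval 1.06 to 2.20, adjusted p = 0.0002) and B44 exceeded B87 by 1.27 (0.78 to 1.76, adjusted p = 0.0002). B26 and B118 differed by -0.02 (-0.56 to 0.53), and B26 and B87 by 0.69 (0.03 to 1.35, adjusted p = 0.0605).

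**Figure D2:**
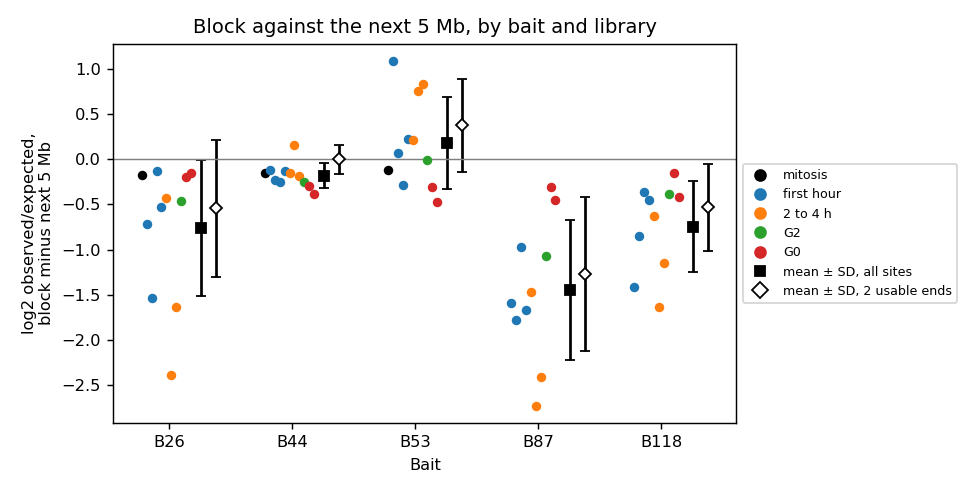
Log2 observed over distance-expected captured sites of the gene-poor region minus that of the next 5 Mb, for each library of the 5 distal baits, coloured by label; squares and diamonds give the mean ± SD over all sites and over sites with 2 usable ends. All libraries of B26, B87 and B118 lie below 0, those of B53 lie on both sides, and the B44 mean moves to -0.000544 when only sites with 2 usable ends are used.

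Depth moved with the size of the deficit at B26 and B87. Its 3 lowest values, -2.39, -1.64 and -1.54, belonged to the libraries labelled 3 h, 4 h and 30 min replicate 2, which captured 1.58%, 2.43% and 4.37% of the region. The mitotic library and both G0 libraries captured 64.0%, 49.8% and 52.9% and had -0.17, -0.20 and -0.15. At B87 the 3 lowest values, -2.73, -2.42 and -1.78, belonged to the same labels, 3 h, 4 h and 30 min replicate 2, which had the fewest captured chromosome 8 sites more than 2 Mb from the bait (1111, 687 and 2424). The G0 libraries there had 5954 and 14559 such sites and values of -0.31 and -0.45, and the library labelled 2 h had 18346 and -1.47. The part of depth in these differences was not tested. For the level of the region alone, every library was thinned to 687 captured sites, and 7 of 10 pairs of baits again differed. Random thinning keeps on average the share of a library's captured sites that lies in the region. It therefore cannot show whether the deficit moved with depth.

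Within the region, the highest bin lay beyond 8.0 Mb from all 5 distal baits. From B26 the highest of the 10 bins of 500 kb was 8.5 to 9.0 Mb, which holds Efnb2, 4921522P10Rik and Arglu1, at a log2 observed over expected of 0.30 ± 0.398, and the lowest was 5.5 to 6.0 Mb at -0.82 ± 1.42 (SD, n = 11). The first exceeded the second in all 11 libraries. From B118 the same Efnb2 bin was highest at -0.81 ± 0.678, against -1.66 ± 0.692 at 6.0 to 6.5 Mb (SD, n = 10), in all 10 libraries. From B44 the highest was 9.5 to 10.0 Mb, the bin of Lig4, Abhd13 and the start of Fam155a, at 0.21 ± 0.422, and the lowest 6.0 to 6.5 Mb at -0.59 ± 0.692. From B53 the highest was also 9.5 to 10.0 Mb at 0.07 ± 0.699, but the lowest, -0.64 ± 0.543, was 8.0 to 8.5 Mb. From B87 the range ran from -1.29 ± 0.547 at 8.0 to 8.5 Mb to -2.23 ± 0.828 at 5.0 to 5.5 Mb. These bins were picked for their extremes and carry no test. Usable ends per site moved along the region too, from 1.34 to 1.53 in the bins up to 8.5 Mb and from 1.67 to 1.71 in the last 3, and GC content ran from 36.5% to 44.1%, highest in the Efnb2 bin. The part of either in the profile was not tested.

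**Figure D3:**
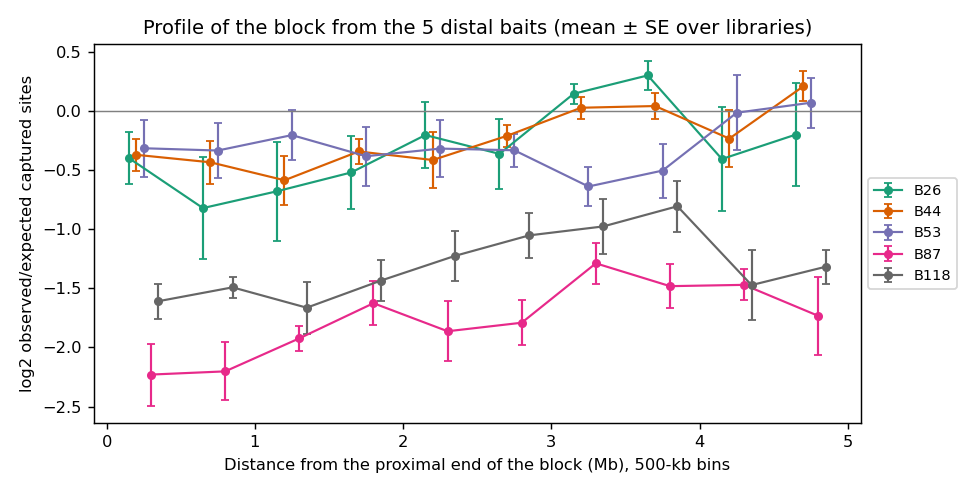
Mean log2 observed over expected captured sites (± SE over libraries) in the 10 bins of 500 kb, by distance from the proximal end of the region, for the 5 distal baits. B87 and B118 lie below 0 in all 10 bins, and B26 peaks at 0.30 in the bin of Efnb2.

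Efnb2 and Fam155a were the genes with 10 or more HindIII sites. Efnb2 had 17, all captured by some library, and Fam155a had 180, of which 166 were. At Efnb2 the mean log2 observed over expected was 0.32 ± 0.498 from B26, above 0 in 10 of 11 libraries, -0.10 ± 0.504 from B44 (0.03 without the library labelled 3 h) and -0.75 ± 0.678 from B53, above 0 in 1 of 11. It was -0.82 ± 0.599 from B87 and -0.97 ± 0.796 from B118 (SD, n = 10 each). At Fam155a it was -0.44 ± 1.51 from B26, -0.02 ± 0.385 from B44, -0.01 ± 1.04 from B53, -1.53 ± 0.653 from B87 and -1.31 ± 0.394 from B118. The B26 mean at Fam155a rests on the library labelled 3 h, which had -4.49, and was -0.03 without it. The B53 mean there was 0.21 without the library labelled G2, which had -2.26. From B7 a median of 13 of 17 Efnb2 sites and 135 of 180 Fam155a sites were captured. The other 7 genes had 0 to 6 sites each. From the distal baits the library with most captured at most 5 of the 6 sites of Slc10a2, 5 of the 5 of Arglu1 and 4 of the 4 of Lig4, and Gm1840 had no site.

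No difference between sites in genes and sites between genes passed the test over all libraries. The difference in log2 observed over expected was 0.01 ± 0.509 from B26, 0.21 ± 0.544 from B44, 0.29 ± 0.429 from B53, 0.47 ± 0.585 from B87 and 0.08 ± 0.461 from B118. It was above 0 in 9, 9, 9, 9 and 7 libraries. The lowest adjusted p was 0.127, at B53 and B87 (exact sign-flip permutation test, 5 baits). Leaving out the library labelled 30 min replicate 1 gave 0.60 and an adjusted p of 0.0195 at B87. Leaving out the library labelled 3 h gave 0.16 at B26 and 0.35 at B44, and leaving out that labelled G2 gave 0.37 at B53, each with an adjusted p of 0.0195 (exact test). On sites with 2 usable ends the 5 differences ran from -0.08 to 0.27 (adjusted p = 0.859 at each bait, exact test).

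No 500-kb bin of the region passed the edgeR test between labelled stages as fitted over all libraries. For 2 to 4 h against the first hour (30 min and 1 h), 0 of 52 bins passed, against 0 of 1467 bins of all 6 baits (0%). An unadjusted p under 0.05 was found in 1 of the 52 and 27 of the 1467, and DESeq2 called 0 as well. The median log2 fold change was 0.18 in the region and -0.05 over all bins. From B26 all 10 bins had a fold change below 0, with a median of -1.04, and from B53 9 of 10 had one above 0, with a median of 0.48, but the lowest adjusted p was 0.915 in edgeR.

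For G0 against 2 to 4 h, 0 of 52 bins passed in edgeR, again against 0% of 1467, while 14 of the 52 and 463 of the 1467 had an unadjusted p under 0.05. The values of B53, which held 9 of those 14, are given as a description. Its captured sites in the region made up 1.56% and 1.46% of those more than 2 Mb from the bait in the G0 libraries, against 4.43%, 3.67% and 3.32% in the libraries labelled 2 h, 3 h and 4 h. Its reads made up 0.609% and 0.465%, against 3.28%, 3.17% and 4.56%. In the first hour the sites made up 4.78%, 3.42%, 2.54% and 4.10%. The G0 values lay below every value of 2 to 4 h on both measures. The library labelled G2 had 0.792% of sites and 0.501% of reads, and the mitotic library 3.28% and 1.37%. All 10 B53 bins had a log2 fold change below 0, from -3.13 to -0.89 (lowest adjusted p = 0.0672, edgeR). From B26 all 10 had one above 0, from 0.79 to 2.63 (lowest adjusted p = 0.154, edgeR). The median over the region's 52 bins was -1.07, against -0.21 over all bins. Under other settings edgeR called 4 of the 52 with library totals, 7 with captured sites and 7 without the library labelled 2 h. Over all bins of the 6 baits these settings called 36, 220 and 229. By bait that was 0% to 5.71%, 2.47% to 21.2% and 7.79% to 23.7% of bins. DESeq2 called 13 of the 52, 9 of them from B53 and all 9 lower in G0, against 29.7% of all bins.

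B7 was described apart, since it lies within the region. Of its reads, 26.5% to 54.2% fell in the region (median 44.5%) and 12.8% to 52.5% on other chromosomes. Within 50 kb of the bait fell 7.67% to 26.2%, and from 50 kb to 2 Mb within the region 16.4% to 31.4%. Reads within 2 Mb (leaving out 50 kb) made up 53.4% ± 13.9 of its chromosome 8 reads beyond 50 kb (SD, n = 11). The same window around B26, B44, B53, B87 and B118 held 40.8% ± 12.1, 29.8% ± 23.1, 30.6% ± 11.2, 37.95% ± 12.6 and 45.9% ± 17.4. B7 was higher than B26 (adjusted p = 0.0444), B44 (0.026), B53 (0.00245) and B87 (0.0286) in a permutation test chosen after the data had been seen, and the difference from B118 missed the threshold (adjusted p = 0.279). For captured sites in place of reads no pair passed (18.8% ± 13.8 for B7, adjusted p = 0.16 at each of the 5 baits, permutation test). B7 lies near the proximal end of the chromosome, so most of its far sites lie on 1 side.

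Over all sites, captured share around B7 varied between bins more with usable ends than with distance. Over the 38 bins of 100 kb the mean captured share ran from 46.5% to 85.8%. As a description over these bins of the same 11 libraries, Spearman's rho was 0.65 with usable ends per site and -0.05 with distance. On sites with 2 usable ends the captured share fell with distance. It went from 95% (50 to 250 kb) to 83.0% (1000 to 2000 kb) toward Efnb2, and from 94.2% to 82.9% proximally. Reads fell more steeply, from a median of 1333 per site at 50 to 250 kb to 684 at 250 to 500 kb, 374 at 500 to 1000 kb and 320.4 at 1000 to 2000 kb.

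The 2 sides of B7 differed in captured sites. At 50 to 250 kb the side toward Efnb2 had 81.7% ± 3.39 of its 53 sites captured and the proximal side 60.1% ± 3.15 of its 57 (SD, n = 11), a log2 difference of 0.44 ± 0.0521 that was above 0 in all 11 libraries. At 250 to 500 kb the shares were 72.2% ± 4.57 and 77.2% ± 5.48, with a difference of -0.10 ± 0.0456, below 0 in all 11. At 500 to 1000 kb they were 71.3% and 70.2%, with 0.02 ± 0.0475, and at 1000 to 2000 kb 78.5% ± 9.71 and 62.3% ± 11.3, with 0.35 ± 0.150, above 0 in all 11. The differences at 3 of the 4 distances passed an exact sign-flip permutation test (adjusted p = 0.0013 each), and 500 to 1000 kb did not (adjusted p = 0.132).

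Usable ends per site and the libraries of the other baits moved with the side differences. From 50 to 250 kb the side toward Efnb2 had 1.66 usable ends per site and the proximal side 1.16, and the other 5 baits together captured 81.1% and 61.4% of the same sites. From 1000 to 2000 kb the values were 1.68 and 1.34 ends, and 92.2% and 76.2% of sites. From 250 to 500 kb, where the proximal side was higher, they were 1.38 and 1.54 ends, and 78.8% and 84.3%. On sites with 2 usable ends B7 captured 95% and 94.2% at 50 to 250 kb, 91.1% and 93.1% at 250 to 500 kb, 88.7% and 87.3% at 500 to 1000 kb, and 83.0% and 82.9% at 1000 to 2000 kb. The log2 differences were then 0.0013, -0.03, 0.03 and 0.01, with a lowest adjusted p of 0.217 (exact test). In reads at those sites only 500 to 1000 kb differed, at -0.17 ± 0.109 (adjusted p = 0.0117, exact test), higher on the proximal side.

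**Figure D4:**
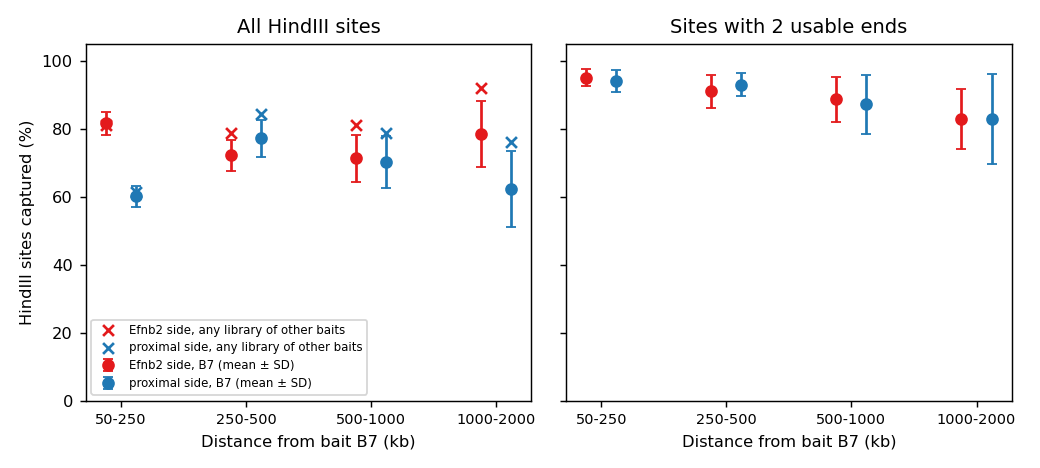
Percent of HindIII sites captured by B7 (mean ± SD over 11 libraries) by distance from the bait, toward Efnb2 (red) and on the proximal side (blue), over all sites (left) and over sites with 2 usable ends (right); crosses give the share that any library of the other baits captured. The sides part by 81.7% against 60.1% at 50 to 250 kb over all sites and lie at 95% and 94.2% over sites with 2 usable ends.

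The share of B7's captured chromosome 8 sites (beyond 50 kb) that lay in the region varied widely between libraries, and neither comparison of stages passed a test. In the first hour it was 19.1% and 32.02% at 30 min and 12.9% and 8.15% at 1 h, and it was 7.56%, 43.9% and 55.2% at 2 h, 3 h and 4 h. The mitotic library had 11.3%, the G2 library 26.8% and the G0 libraries 16.1% and 15.4%. The 2 highest values belonged to the libraries with the fewest captured sites. The mean was 35.6% ± 24.9 at 2 to 4 h (n = 3) and 18.1% ± 10.3 in the first hour (n = 4; p = 0.257, exact permutation test, smallest possible 0.0286). It was 15.8% ± 0.468 in G0 (n = 2), against 35.6% at 2 to 4 h (n = 3; p = 0.4, exact permutation test, smallest possible 0.1). Leaving out the library labelled 4 h gave differences of 7.69 and -9.97 points, and leaving out that labelled 2 h gave 31.5 and -33.8 points.

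The share of bins called around B7 lay near that over all baits, so its called bins are given as a description. For G0 against 2 to 4 h, 5 of the 38 bins of 100 kb within 2 Mb passed in edgeR, against 9.65% of the 228 such bins of all 6 baits. The bin 1550 to 1650 kb on the proximal side (5573965 to 5673964, which holds Gm1840) held 2.72% and 2.20% of the near reads in the G0 libraries, against 1.30%, 1.04% and 0.680% at 2 h, 3 h and 4 h, a log2 fold change of 1.27 (SE 0.337, adjusted p = 0.0309, edgeR). In the other libraries it held 1.87% in mitosis, 0.869% to 2.07% in the first hour and 2.39% in G2. The other 4 bins were lower in G0 and lay within 650 kb of the bait on both sides. The bin 550 to 650 kb on the proximal side (6573965 to 6673964) held 2.47% and 1.95% in G0, against 2.76%, 4.24% and 4.32% at 2 to 4 h (log2 fold change -0.81, SE 0.225, adjusted p = 0.0349, edgeR). The bins at 6873965 to 6973964, 7373966 to 7473965 and 7573966 to 7673965 had fold changes of -0.40, -0.46 and -0.51 (adjusted p = 0.0423, 0.0371 and 0.0371, edgeR).

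Beyond these bins, all 12 bins from 750 kb to the end of the window on the proximal side had a log2 fold change above 0 (0.12 to 1.27) and all 7 nearer ones a value below 0 (-0.81 to -0.07), a division drawn after the data had been seen. On the side toward Efnb2, 5 of the 10 bins beyond 950 kb were above 0. Reads within 500 kb made up 40.2% and 41.4% of the near reads in G0, against 47.5%, 47.5% and 51.3% at 2 h, 3 h and 4 h. They made up 46.8% in mitosis, 45.4% to 49.5% in the first hour and 39.5% in G2. The 5 calls rest on few libraries: leaving out the library labelled 3 h, that labelled 4 h, or either G0 library left 0 bins called, as did captured sites in place of reads. DESeq2 called 10 of the 38, 4 higher and 6 lower in G0, against 18.5% of all near bins. For 2 to 4 h against the first hour edgeR called 0 of the 38 bins, against 0% of 228, and DESeq2 called 0. An unadjusted p under 0.05 was found in 3 of the 38 and 10 of the 228.

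**Figure D5:**
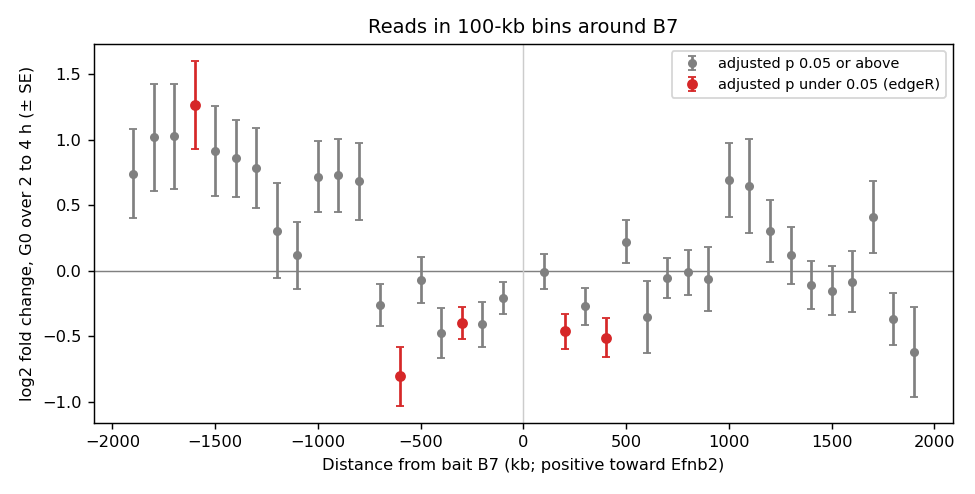
Log2 fold change of reads (± SE, edgeR), G0 over 2 to 4 h, in the 38 bins of 100 kb around B7, by distance from the bait with the Efnb2 side positive; red marks the 5 bins with an adjusted p under 0.05. All 12 bins beyond 750 kb on the proximal side lie above 0, and the 4 called bins within 650 kb lie below 0.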

How the data were processed

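The authors deposited raw read counts per HindIII site and library, and no normalized values. The labels' protocols give HindIII, DpnII and 50-bp reads, and BWA 0.5.9 and mm9 are named per the submitters' processing notes. Read filters are not given in the sources used here. All 39480 chromosome 8 positions equalled HindIII sites of the supplied mm9 sequence. The region, gene lists and tests were chosen with earlier results of these data known. Of 109 columns, 39 were not used: those of baits on chromosomes 16 and 17, and those labelled 1.5 h. Captured sites are sites with 1 read or more.

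Expected captured sites came from a Poisson regression on log distance (statsmodels 0.14.6; bins of 500 kb with 20 or more sites, over 2 Mb from the bait and outside the region, offset log sites; pseudocount 0.5). Libraries were compared by exact two-sided sign-flip or permutation tests (100000 draws where not exact), with Benjamini-Hochberg adjustment within each family. Reads per bin were tested with edgeR 4.0.16 (TMM, filterByExpr, glmQLFit robust, glmQLFTest) in R 4.3.3, 1 fit per bait with all its labels, adjusted over the bins of all 6 baits, and with DESeq2 1.42.0 as an alternative. Percents of near reads are of the reads in the 38 bins around B7. The distance fit and the sign-flip test were run on simulated libraries of B53 only. The edgeR test was run on simulated B53 bins with changes larger than those reported near B7. That run does not show how often smaller changes would be found. Bins, genes and sites were named by a fixed rule: extreme bins per bait, genes with 10 or more sites, called bins near B7, and the 3 sites captured by most distal libraries. Python 3.11.15, numpy 2.4.6, pandas 2.3.3, scipy 1.17.1 and matplotlib 3.10.9 were used.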

Additional observations from a re-analysis of the deposited data

Results flagged for a closer look

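The region minus the next 5 Mb differed between 8 of the 10 pairs of baits by the permutation test of the difference itself (adjusted p under 0.05). The log2 differences were -0.58 for B26 minus B44, -0.94 for B26 minus B53, -0.36 for B44 minus B53, 1.27 for B44 minus B87, 0.56 for B44 minus B118, 1.63 for B53 minus B87, 0.93 for B53 minus B118 and -0.70 for B87 minus B118.

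A sample lay far from the others in 2 of the 33 groups of 4 to 10 libraries examined, and chance alone gives about 1 in 20. Among the first-hour libraries, B44 1 h replicate 1 had a log2 excess of the region over other chromosomes of 3.37, and B118 30 min replicate 2 had 0.82.

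Among the 39 columns not used above, that labelled chromosome 16 bait B48, 2 h replicate 2, captured 41.4% of the region's sites. The others captured 0.425% to 12.6% (median over all 39, 2.73%).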

How the results depend on the processing

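The deficit against the next 5 Mb kept its direction and its call at B87 and B118 under each alternative run, but fell in size to -0.61 and -0.21 against the 2 Mb before the region. At B26 it missed the threshold only against the 2 Mb before the region (-0.38). B44 turned with reads (0.14), without a site offset (0.0077) and against the 2 Mb before (0.17), and missed the threshold with capped reads (-0.17) and on sites with 2 usable ends (-0.00054). B53 passed on sites with 2 usable ends (0.38), without the offset (0.37) and against the 2 Mb before (0.49). The excess over other chromosomes kept its call in each alternative.

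Between baits, 7 of 10 pairs of levels passed, 1 with the lowess that includes the region, and 6 to 8 in the others. The pairs were not always the same ones. With reads 8 passed, among them B26 minus B44 and B44 minus B53, but not B87 minus B118. The read levels of B44 did not follow the share of its reads that lay in the region. Labels shared by baits gave r from -0.56 (B26 and B118) to 0.72 (B44 and B53), over 0.1 in 6 of 10 pairs. These values do not settle whether libraries of 1 label shared material between baits, and the tests between baits treat them as separate. With the replicate block 7 pairs passed. For genes against intergenic sites, B53 (0.30) and B87 (0.58) passed with a pseudocount of 2, and leaving out 1 library gave -0.0196 to 0.16 at B26, 0.134 to 0.35 at B44, 0.22 to 0.37 at B53, 0.37 to 0.60 at B87 and 0.03 to 0.20 at B118.

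For the sides of B7, sites captured by another bait gave 0.067 at 50 to 250 kb, which kept its call, 0.00026 at 250 to 500 kb and 0.081 at 1000 to 2000 kb; reads at those sites gave 0.0053, -0.064, -0.26 and 0.30 from near to far. Sites with 2 usable ends gave 0.0013, -0.030 and 0.011 at the 3 called distances, and reads at them -0.0097, -0.0515, -0.17 and 0.16. At 500 to 1000 kb reads gave -0.22, capped reads 0.0313, and leaving out 1 library 0.0143 to 0.031.

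In the stage tests, long-range bins called in G0 against 2 to 4 h were 13 with DESeq2, 4 with library totals, 7 with captured sites, 7 with larger bins (fewer bins), 3 without 1 h replicate 2 and the library labelled 2 h, and 0 to 7 leaving out 1 library. Over all bins of the 6 baits, 1467 in the main setting, these settings called 429, 36, 220, 166, 139 and 0 to 229. For 2 to 4 h against the first hour, leaving out 1 library gave 0 to 1, against 0 to 31 over all bins. Near B7, G0 gave 10 with DESeq2, 0 with captured sites and 0 to 6 leaving out 1 library. Over the near bins of all 6 baits, 228 in the main setting, the counts were 42, 0 and 0 to 43. The share of B7's captured sites that lay in the region kept its direction, with 7.69 to 31.5 points for 2 to 4 h minus the first hour and -33.8 to -9.97 for G0 minus 2 to 4 h leaving out 1 library. The cause was not tested for any of these changes. The libraries labelled 3 h and 4 h, with the fewest captured sites, limit every comparison with 2 to 4 h.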
